A study of Mus musculus with 20 samples.

Results

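The gene described here is Zfp42, also called Rex1, which encodes a zinc finger protein long used as a marker of undifferentiated mouse embryonic stem cells (ESCs). It is 1 of 21361 genes in a table of RNA-seq counts from 20 mouse libraries, and it was picked for its measured levels: a difference of the Bax lines from the Host and DKO lines, and a fall in epiblast-like cells (EpiLCs). Those differences are therefore given as descriptions, with no test. The study injected primordial germ cells (PGCs), the embryonic precursors of sperm and eggs, into early mouse embryos, and lines derived from them in culture are called PGC-ESCs.

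The libraries came from 7 groups. ESC Host was 4 wildtype lines of strain C57Bl6J taken from the host embryos, and PGC-ESC DKO was 3 lines of the same strain that lack Puma and Noxa. The mixed strain label C57Bl6J/129SvEvRoEp was shared by 5 PGC-ESC BaxKO lines, 2 ESC BaxKO lines and 1 ESC BaxHet line, and the ESC lines among them had been established earlier than the Host lines. These 8 are called the Bax lines below, and the 7 Host and DKO lines the C57Bl6J lines. EpiLCs, a culture model of the epiblast just after implantation, were made from Host lines 3 and 4 and from the 3 DKO lines; no source used here gives the steps of the conversion, and no EpiLC library of a Bax line was analysed here. Bax, Puma (gene Bbc3) and Noxa (gene Pmaip1) promote cell death. ESCs were kept on gelatin in 2i/LIF, a medium with 2 kinase inhibitors and a cytokine that holds the naive state. The Bax genotype and the strain label move together between Bax and C57Bl6J lines and cannot be told apart. Among the ESC lines, the time of derivation moves with them as well.

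Zfp42 belongs to the family of the transcription factor YY1 and is thought to have arisen by retroposition of a Yy1-like gene; Yy2, on the X chromosome, is a further relative. In mouse ESCs the gene is driven by pluripotency factors such as Nanog, Sox2 and Oct4 (gene Pou5f1), and its loss is a standard readout of exit from the naive state. The protein represses X inactivation in ESCs by acting on Xist and Tsix, and it is a substrate of the ubiquitin ligase Rnf12 (gene Rlim). It has also been reported at imprinted genes such as Peg3 and Gnas.

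The count table names genes by symbol. In GENCODE M21 on GRCm38 (mm10), Zfp42 (ENSMUSG00000051176.6) lies on chromosome 8 at positions 43295063 to 43306980 on the minus strand, with 3 transcripts and 1881 bp of exons in all. A processed copy, Zfp42-ps1, is annotated on chromosome 15 and has no row in the table, so whether any of its reads were placed at Zfp42 was not tested. Zfp42 and its nearest neighbour Triml2 were both higher in every Bax line than in any undifferentiated C57Bl6J line. For that reason the 250 bases before a RefSeq start of each are shown (GRCm38.p6, Zfp42 at chr8:43307010-43307259, minus strand, Triml2 at chr8:43180286-43180535, plus strand). Each is written 5′ to 3′, and capitals mark the octamer, the motif bound by Oct4.

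Zfp42: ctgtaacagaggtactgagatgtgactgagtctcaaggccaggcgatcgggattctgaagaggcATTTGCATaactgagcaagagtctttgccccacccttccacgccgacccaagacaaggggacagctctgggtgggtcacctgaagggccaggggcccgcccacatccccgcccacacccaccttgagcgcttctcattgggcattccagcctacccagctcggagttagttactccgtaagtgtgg
Triml2: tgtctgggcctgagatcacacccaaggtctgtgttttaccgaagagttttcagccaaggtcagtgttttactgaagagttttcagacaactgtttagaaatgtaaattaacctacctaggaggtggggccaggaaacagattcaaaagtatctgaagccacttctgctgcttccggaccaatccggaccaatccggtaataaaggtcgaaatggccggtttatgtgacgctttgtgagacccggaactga

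The octamer (ATTTGCAT, searched on both strands) began 186 bases before the Zfp42 start; 1.60% of 32851 RefSeq promoter windows of the same length held it. GC boxes (CCGCCC), the type of site bound by Sp1 and Sp3, began 91 and 79 bases before the start, and 32.7% of windows held at least 1. Neither a STAT motif (TTCNNNGAA, in 7.02% of windows) nor a YY1 motif (AAGATGGC, in 1.56%) was found in the Zfp42 window. None of the 4 motifs was found in the windows of Triml2 or Triml1. The RefSeq models of these genes extend beyond the starts used, to 43180463 for Triml2 and 43180494 for Triml1. Other starts were not searched. The reference genome is of strain C57BL/6J, and sequence of the 129 strain was not used here.

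Zfp42 was high in every Bax line, about 3 times lower in every undifferentiated C57Bl6J line and lowest in EpiLCs. Levels are given as CPM, each library's counts scaled to a common total. The PGC-ESC BaxKO lines 1 to 5 were at 489, 419, 490, 432 and 457 CPM (mean 457 ± 32.3, SD, n = 5). ESC BaxKO lines 1 and 2 were at 461 and 433 CPM (447 ± 19.7, n = 2), and the single ESC BaxHet line was at 412 CPM. All 8 Bax lines thus fell in a narrow band whatever their origin.

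ESC Host lines 1 to 4 were at 143, 154, 137 and 129.6 CPM (141 ± 10.1, SD, n = 4). PGC-ESC DKO lines 1 to 3 were at 153, 129.2 and 137 CPM (139.5 ± 11.9, n = 3). The 8 Bax lines (412 to 490 CPM) and the 7 C57Bl6J lines (129.2 to 154 CPM) did not overlap: the lowest Bax line was 2.68 times the highest C57Bl6J line, and the ratio of the means was 3.20. Within each band the coefficient of variation was small, 6.69% in the Bax lines and 7.10% in the C57Bl6J lines.

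EpiLC Host 3 and 4 were at 25.2 and 25.5 CPM (25.4 ± 0.179, SD, n = 2), and EpiLC DKO 1 to 3 at 29.8, 32.1 and 30.6 CPM (30.8 ± 1.21, n = 3). All 5 EpiLC libraries were below every undifferentiated line, and the 3 DKO values were above both Host values. Counts behind these levels ran from 492 in EpiLC DKO 3 to 13695 in PGC-ESC BaxKO 2. Per kilobase of annotated exon, mean Zfp42 levels were 243 CPM in PGC-ESC BaxKO, 74.8 in ESC Host and 13.5 in EpiLC Host lines. On that scale Yy1, the founding member of the family, ran from 21.9 to 27.5 over the 7 group means, so Zfp42 was above Yy1 in every undifferentiated group and below it in both EpiLC groups.

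**Figure D1:**
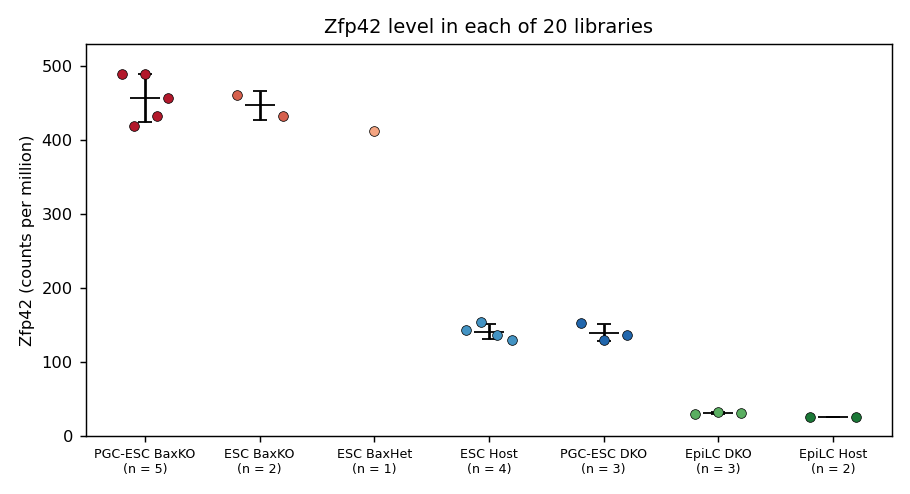
Zfp42 level in CPM for each of the 20 libraries (points) by group, with the mean and SD as a bar and whiskers where a group had more than 1 library. The Bax lines sit between 412 and 490, the undifferentiated C57Bl6J lines between 129.2 and 154 and the EpiLCs between 25.2 and 32.1.

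Library totals ran from 14255399 to 33376660 counts. Bax was at 1.66 to 2.43 CPM in the 7 BaxKO libraries, 110 in BaxHet and 229 to 533 elsewhere. Pmaip1 (Noxa) was at 1.26 to 5.69 CPM in DKO libraries against 20.2 to 333 in Host libraries. Bbc3 (Puma) was at 27.5 to 49.2 CPM in PGC-ESC DKO and 38.5 to 49.7 in ESC Host lines; the sources do not say which part of the gene is deleted, so this does not check the label. EGFP was at 568 to 9720 CPM in the Bax and DKO libraries and at most 0.547 in Host libraries. Rn45s, the ribosomal RNA precursor, was between 1913 and 5106 CPM in the low set of 9 libraries, namely the 5 PGC-ESC BaxKO lines, Host 1 and 2 among the ESCs, BaxKO 1 and BaxHet, and between 17130 and 51924 in the high set of the other 11. Summed markers of other cell types were low: 7 primitive endoderm genes at 4.19 to 14.8 CPM in undifferentiated lines and 13.2 to 31.0 in EpiLCs, 5 trophoblast genes at 11.5 to 63.0 and 6.33 to 10.2, and 5 fibroblast genes at 1.71 to 15.6 and 15.4 to 19.2. Of these genes, Dab2 (primitive endoderm) and Col1a2, Thy1 and Twist2 (fibroblast) were higher in EpiLCs in both conversions. Between ESC BaxKO and ESC Host lines, Tfap2a (2.63 ± 0.46, adjusted p = 0.00344 by edgeR's quasi-likelihood test) and Col1a2 (2.76 ± 0.67, adjusted p = 0.0246) were higher, and Eomes (-1.31 ± 0.35, adjusted p = 0.0374) and Sox7 (-3.20 ± 0.81, adjusted p = 0.0314) lower; these 4 also passed with the Rn45s set as a term, an alternative added after the values were seen. Col1a2 itself was low, at 0.65 and 1.59 CPM in ESC BaxKO 1 and 2 and at most 0.264 in ESC Host lines. Over the 4 fibroblast genes tested in that pair the median log2 change was -1.34, the opposite direction to Col1a2. Their summed level, over all 5 listed, was 2.46 to 2.67 CPM in ESC BaxKO and 2.26 to 6.28 in ESC Host lines. The summed trophoblast level was 35.8 to 56.6 CPM in ESC BaxKO and 11.5 to 23.2 in ESC Host lines. It was 18.8 in BaxHet, 22.6 to 63.0 in PGC-ESC BaxKO and 18.2 to 32.8 in PGC-ESC DKO lines. Between the PGC-ESC groups 1 of these marker genes passed, Eomes, which was lower in BaxKO lines (-1.93 ± 0.27, adjusted p = 0.000242); with the set term it did not pass, and Sox17 was lower. Over all genes, 5.02% passed between the ESC groups and 23.6% between the PGC-ESC groups. The part of these marker genes in the Zfp42 levels was not tested. In bulk RNA, fewer cells with the transcript and less transcript per cell cannot be told apart.

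Lines from PGCs and lines from embryos could be compared within each background. The choice of Zfp42 set the Bax lines as 1 block against the Host and DKO lines as another, which favours a gene that is alike within each block, so the small differences here are not independent of it. No difference was detectable within either background. With edgeR's quasi-likelihood test over 16363 genes and Benjamini-Hochberg adjustment, PGC-ESC BaxKO exceeded ESC BaxKO lines by 0.014 ± 0.097 on the log2 scale (SE; 95% interval -0.19 to 0.22; adjusted p = 0.978). PGC-ESC DKO exceeded ESC Host lines by 0.060 ± 0.089 (interval -0.13 to 0.25; adjusted p = 0.904), a comparison that also carries the DKO genotype and EGFP. Both intervals are narrower than the difference of about 1.6 between backgrounds. That difference chose Zfp42, so it is no independent yardstick and nothing is read from the comparison. An adjusted p of 0.05 was passed by 0.0367% of genes (6) in the first comparison and 0.116% (19) in the second. Before adjustment 1637 and 1195 genes had a p under 0.05. The sign of the first value depended on the lines counted: leaving out BaxKO 2 of the ESCs gave -0.023, and leaving out line 1 or line 3 of the PGC-ESCs gave -0.0048 or -0.0072. That of the second was -0.011 without PGC-ESC DKO 1.

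The ESC lines with 1 and with no intact Bax allele could be set side by side only as 1 library against 2, both within the block on which Zfp42 was chosen. The BaxHet line, with Bax at 110 CPM, differed from the ESC BaxKO lines by -0.16 ± 0.14 on the log2 scale (interval -0.46 to 0.14; adjusted p = 1 by edgeR's quasi-likelihood test, where 0.0122% of genes passed). As BaxHet is 1 library, the test assumes that it would vary like the other groups.

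The difference used to pick Zfp42 is described here in both pairs of groups. Both pairs were part of that choice, so their similar size is no independent repeat. ESC BaxKO lines were above ESC Host lines by 1.59 ± 0.10 (log2, SE; 3.02-fold), and PGC-ESC BaxKO lines were above PGC-ESC DKO lines by 1.55 ± 0.09 (2.92-fold). Among all tested genes, 431 had a larger positive change in the first pair and 822 in the second. In the first pair 5.02% of genes passed the test in either direction, and in the second 23.6%; since the contrast chose Zfp42, nothing is read from its own place among them. Within the low Rn45s set, ESC BaxKO 1 stood at 461 CPM against 143 and 154 in Host 1 and 2 (log2 difference 1.67), and within the high set, ESC BaxKO 2 stood at 433 against 137 and 129.6 in Host 3 and 4 (1.54). PGC-ESC BaxKO lines were all in the low set and PGC-ESC DKO lines all in the high set; with the set as a term estimated from the other groups, their difference was 1.55.

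Genes known to act upstream of Zfp42 were taken from a list of 13. Of these, 0 were higher and 0 lower in ESC BaxKO than in ESC Host lines by edgeR's quasi-likelihood test, with a median log2 change of 0.03 beside -0.05 over all genes; 5.02% of all genes passed, so a count of 0 of 13 is near the background. The most abundant of them, Pou5f1 (Oct4), was at -0.37 ± 0.22 (adjusted p = 0.349), and Tfcp2l1, a naive transcription factor downstream of LIF, was at 0.07 ± 0.19 (adjusted p = 0.863). Between PGC-ESC BaxKO and PGC-ESC DKO lines, 0 of 13 were higher and 1 was lower: Pou5f1 was at -0.55 ± 0.18 (adjusted p = 0.0354), the opposite direction to Zfp42. With the Rn45s set as a term, 0 of 13 passed in either direction in both pairs. Pou5f1 was at 1152 to 1321 CPM in the 5 PGC-ESC BaxKO lines and at 1372, 2072 and 1528 CPM in the 3 DKO lines. These groups did not overlap, and DKO 2 was the highest of the 8. The share of all genes without overlap between them was not counted.

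The naive pluripotency genes were counted in the same pairs. Of 14 listed, 0 passed in either direction between ESC BaxKO and ESC Host lines (median -0.10 beside -0.05 over all genes), where 5.02% of all genes passed. In PGC-ESC BaxKO against PGC-ESC DKO lines 2 were higher and 0 lower, with a median of -0.04, where 23.6% of all genes passed. Lists this short cannot be told from the background by such counts. They were Tcl1, a cofactor of the kinase AKT, at 0.84 ± 0.27 (adjusted p = 0.0322), and Prdm14, a repressor of differentiation genes that is also needed for PGCs, at 0.78 ± 0.27 (adjusted p = 0.0462). Among 12 formative genes, which mark the state after naive exit, Pou3f1 alone passed in ESCs and was lower in BaxKO lines (-1.34 ± 0.37, adjusted p = 0.046). In the PGC-ESC pair Utf1, Dnmt3l and Zic2 were lower, and Otx2 and Fgf15 higher. Of these naive and formative calls, 0 passed in either pair with the Rn45s set as a term.

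The gene next to Zfp42 shared its step between backgrounds. Triml2 and Triml1 encode members of the tripartite motif-like family; Triml2 lies 101.2 kb from Zfp42 and Triml1 153.6 kb, both toward lower coordinates. In PGC-ESC BaxKO 1 to 5 Triml2 stood at 92.9, 105, 95.3, 89.3 and 88.0 CPM, with 97.1 and 91.1 in ESC BaxKO 1 and 2 and 106 in BaxHet. It was at 39.6, 42.9, 28.7 and 32.9 CPM in ESC Host 1 to 4 and at 32.5, 36.1 and 28.0 in PGC-ESC DKO 1 to 3. Within the Bax lines it did not follow Zfp42. Triml2 was highest in BaxHet and PGC-ESC BaxKO 2, where Zfp42 was lowest (412 and 419 CPM). Triml2 levels of the Bax and C57Bl6J lines did not overlap, and the ratio of their means was 2.78, against 3.20 for Zfp42. How many of all genes separate these lines in this way was not counted.

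By edgeR's quasi-likelihood test Triml2 was higher in ESC BaxKO than in ESC Host lines by 1.32 ± 0.15 (log2, SE; adjusted p = 8.94e-05) and in PGC-ESC BaxKO than in PGC-ESC DKO lines by 1.38 ± 0.14 (adjusted p = 8.79e-06). It was 1 of 821 and 1 of 3858 genes called in those comparisons. Its neighbour Triml1 did not pass, at 0.81 ± 0.31 (adjusted p = 0.144) and 0.42 ± 0.27 (adjusted p = 0.277). Triml1 ran from 39.0 to 75.4 CPM in Bax lines and from 26.4 to 52.8 in C57Bl6J lines, so its ranges overlapped. The RefSeq models of Triml1 and Triml2 overlap at their ends on opposite strands, and the strand setting of the counts is not given, so reads there cannot be divided between them. The next genes on that side, Frg1 and Asah1, lie 1.88 and 1.92 Mb away, and neither passed in either pair. The 4 nearest protein-coding genes on the other side (Adam26b, Adam26a, Gm5346 and Adam34) have no row in the table.

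**Figure D2:**
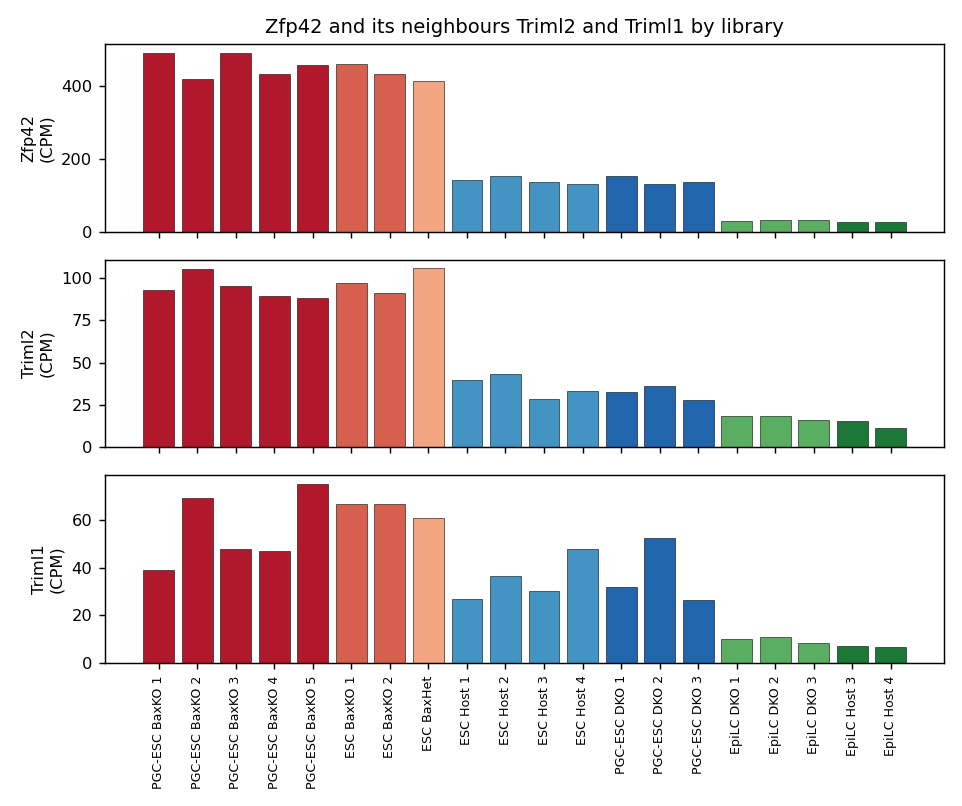
Level in CPM of Zfp42 (top), Triml2 (middle) and Triml1 (bottom) in each library, coloured by group (reds Bax lines, blues undifferentiated C57Bl6J lines, greens EpiLCs). Triml2 repeats the step between Bax and C57Bl6J lines seen for Zfp42, from 88.0 or more to 42.9 or less, whereas the Triml1 ranges overlap.

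Farther out, calls ran both ways in both pairs. In a window of 5 Mb on each side, a width chosen after values had been seen, 42 other genes were tested. In ESC BaxKO against ESC Host lines 2 were higher (Triml2 and Sgcz), 2 lower (Fgl1 and Pdlim3), and the median was -0.04, beside -0.09 over the 826 tested genes of chromosome 8, of which 52 passed. Between PGC-ESC BaxKO and PGC-ESC DKO lines 8 were higher and 4 lower, with a median of 0.25, beside -0.05 over chromosome 8, where 200 genes passed. Fat1, a large cadherin and the first tested gene on the other side, 1.63 Mb off, was at 0.73 ± 0.24 (adjusted p = 0.0935) and 0.30 ± 0.21 (adjusted p = 0.314). Sgcz, a sarcoglycan gene 4.65 Mb from Zfp42, was named after its values were seen: it had 45 to 82 counts in each of the 8 Bax libraries and 0 counts in each of the 12 others, EpiLCs included. Its plotted fold change rests on those zeros and is no measure of size. How many of all genes separate the Bax libraries from the others like this was not counted, so nothing is read from it.

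**Figure D3:**
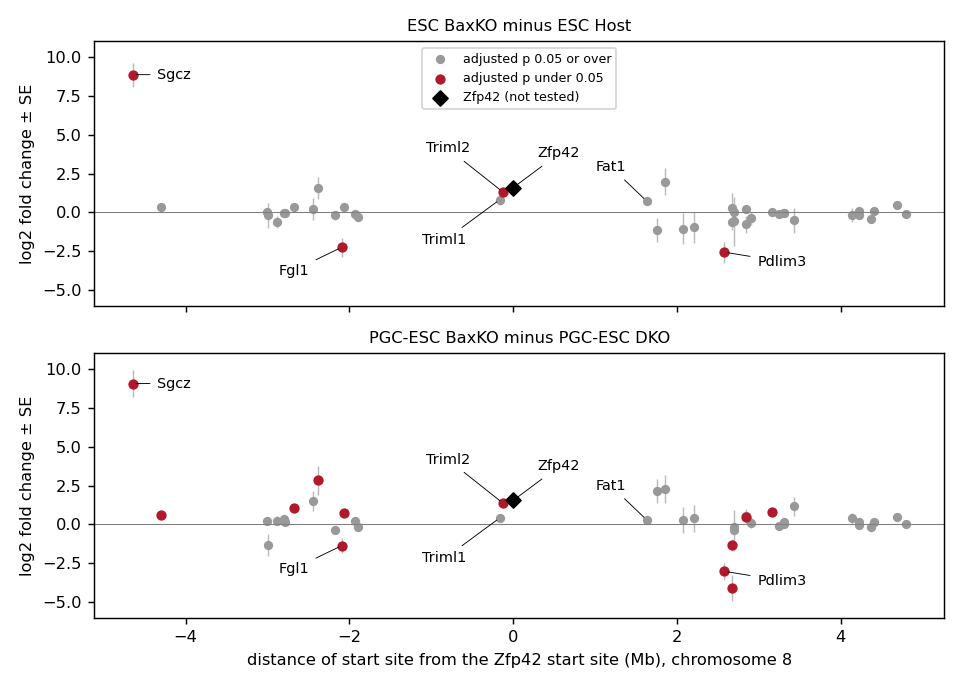
Fold change on the log2 scale with its SE for Zfp42 (black) and 42 tested genes, by distance of their start sites from that of Zfp42 in Mb; red points had an adjusted p under 0.05. Zfp42 and Triml2 lie close together at 1.59 and 1.32 (top) and 1.55 and 1.38 (bottom), with other genes of the window above and below them; the highest point, Sgcz, is a gene with 0 counts in all C57Bl6J libraries.

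Likeness to Zfp42 was measured as the root mean square difference between gene-centred log2 CPM profiles, for which smaller is closer. Over the 15 undifferentiated libraries Triml2 was the nearest of all tested genes, at 0.20, where the spread of Zfp42 about its own mean was 0.78. The next were Gm15545 (0.22), Fam111a (0.25), 1700025G04Rik (0.26), Bag3 and Inpp5f (both 0.27). Fam111a encodes a protease, Bag3 a co-chaperone and Inpp5f a phosphoinositide phosphatase. Bag3 and Inpp5f are 64.3 kb apart on chromosome 7, and Gm15545 lies on the same chromosome, 467.1 kb from Bax. Bag3 was at 35.7 to 48.3 CPM in Bax lines and 8.21 to 17.1 in C57Bl6J lines. As these genes were picked on this pattern, no test of it is given. By rank correlation in place of the difference, 0 of the 6 were among the 6 nearest.

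The genes nearest over all 20 libraries were Ly75, an endocytic receptor (0.37), Glis3, a zinc finger factor (0.40), Kit, the stem cell factor receptor needed by PGCs (0.41), Slit2, a secreted guidance ligand (0.42), Klf15, a Krüppel-like factor (0.45), and Pof1b, an X-linked actin-binding protein (0.45). The Zfp42 spread on that scale was 1.58, and Triml2 ranked 51st at 0.59. Kit was at 280 to 431 CPM in Bax lines, 120 to 262 in undifferentiated C57Bl6J lines and 17.6 to 24.1 in EpiLCs. Its undifferentiated bands were thus wider than those of Zfp42, with ESC Host 1 and 2 at 262 and 216 CPM and Host 3 and 4 at 145 and 121. Pof1b was at 6.31 CPM in ESC BaxKO 2 and 9.55 in ESC Host 2, so its undifferentiated bands overlapped. These genes too were picked on this pattern, and no test of it is given. Rank correlation again shared 0 of the 6.

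**Figure D4:**
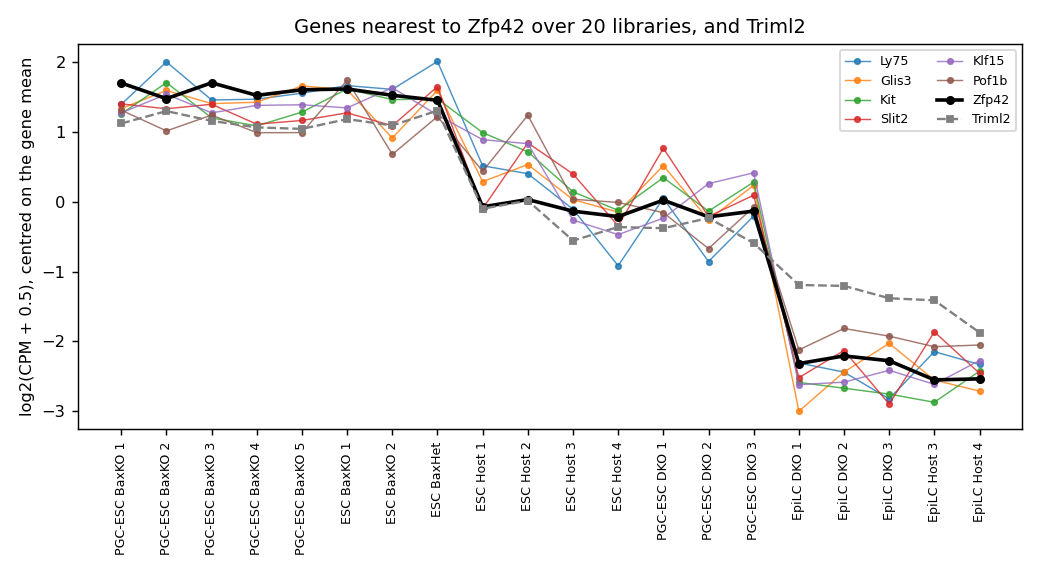
Profiles of Zfp42 (black), its 6 nearest genes over 20 libraries (colours) and Triml2 (grey dashes), as log2(CPM + 0.5) centred on each gene's mean. Zfp42 runs flat within the Bax lines, within the other undifferentiated lines and within the EpiLCs. The 6 genes, picked for this likeness, share both steps with more scatter, except that Pof1b overlaps between Bax and undifferentiated C57Bl6J lines. Triml2 falls less in EpiLCs.

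On conversion to EpiLCs Zfp42 dropped in all 5 lines, to between 15.7% and 21.1% of the parent line. The log2 change by line was -2.59 in Host 3, -2.67 in Host 4, -2.57 in DKO 1, -2.31 in DKO 2 and -2.25 in DKO 3. As group values the fall was -2.61 ± 0.12 in Host lines (log2, SE; 6.12-fold lower) and -2.38 ± 0.10 in DKO lines (5.20-fold lower). The Host value sets EpiLC Host 3 and 4 against all 4 ESC Host lines. Group values on conversion, here and below, did not use the pairing of EpiLCs with their parent lines. The transcriptome changed widely, with 44.0% of genes called in Host and 47.6% in DKO lines, and 951 and 821 genes fell further than Zfp42. That it fell was part of its choice and is not tested.

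Whether it fell equally in both genotypes was not part of the choice. The DKO fall was smaller by 0.23 ± 0.14 on the log2 scale (interval -0.06 to 0.53), with an adjusted p of 1.00 by edgeR's quasi-likelihood test, where 0.00611% of genes (1) passed. Levels in the EpiLCs themselves were 0.29 ± 0.11 higher in DKO than in Host (interval 0.06 to 0.52; unadjusted p = 0.0154). After adjustment over all genes this was not called (adjusted p = 1), and 0.0428% of genes (7) were. The 3 DKO and 2 Host values did not overlap, but so few values often separate by chance. The share of all genes that did so was not counted, so nothing is read from it.

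Most naive genes fell further than Zfp42. All 14 passed as lower in both conversions by edgeR's quasi-likelihood test, with medians of -6.37 in Host and -4.92 in DKO lines, beside -0.03 and 0.01 over all genes. Of all genes, 21.7% were called lower in Host and 22.5% in DKO conversion. In each conversion 12 of the 14 fell more than Zfp42, and Dppa3 and Dppa5a fell less. Tfcp2l1 changed by -7.13 ± 0.28 (adjusted p = 3.05e-11) in Host and -6.53 ± 0.23 (adjusted p = 3.89e-12) in DKO lines. Klf4, a Krüppel-like factor of the naive network, was at 429 ± 166 CPM in ESC Host (SD, n = 4) and 2.87 ± 0.264 in EpiLC Host (n = 2).

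Of 5 core factors 4 were lower in both conversions. Sox2 changed by -2.92 ± 0.20 and Nanog by -2.59 ± 0.35 in Host lines, and by -2.62 ± 0.17 and -3.13 ± 0.31 in DKO lines, while Pou5f1 changed by -1.21 ± 0.23 and -1.09 ± 0.21 and Sall4 by -0.99 ± 0.13 and -0.78 ± 0.12; all 8 values passed (adjusted p from 2.30e-09 to 0.000372). Of the 13 upstream regulators, 12 were lower in Host EpiLCs and 11 in DKO EpiLCs, and 0 were higher. The shares of all genes called lower were 21.7% in Host and 22.5% in DKO conversion. Those called higher were 22.4% and 25.1%. Of 12 formative genes 10 rose in Host lines (8 with the Rn45s set as a term), 9 rose in DKO lines, and Foxd3 alone fell in both. Fgf5, the classical marker of the post-implantation epiblast, rose by 7.38 ± 0.48 in Host and 7.17 ± 0.54 in DKO lines (adjusted p = 3.40e-09 and 1.51e-08).

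**Figure D5:**
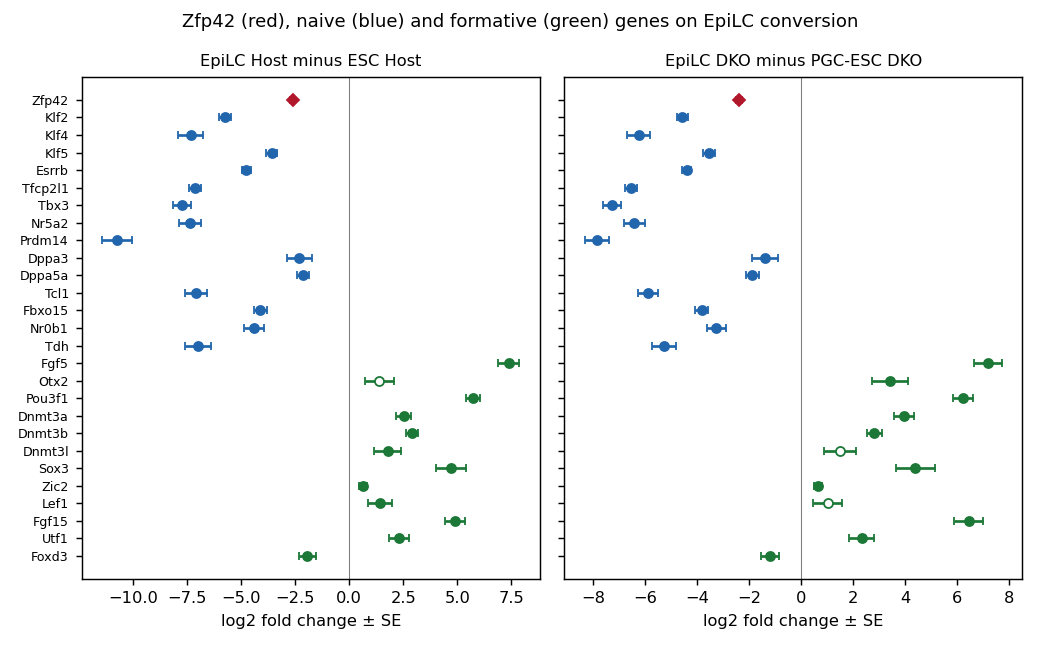
Fold change on the log2 scale with its SE on conversion to EpiLCs, in Host (left) and DKO lines (right), for Zfp42 (red diamond, not tested), 14 naive genes (blue) and 12 formative genes (green). Open points had an adjusted p of 0.05 or over. Zfp42, at -2.61 and -2.38, lies to the right of 12 of the 14 naive genes on each side.

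The neighbours fell as well, unequally. Triml1 changed by -2.54 ± 0.37 in Host and -2.16 ± 0.32 in DKO lines (adjusted p = 2.82e-05 and 2.94e-05), and Triml2 by -1.56 ± 0.17 and -1.09 ± 0.15 (adjusted p = 1.52e-06 and 1.98e-05). Triml2, which shared the step of Zfp42 between backgrounds, thus lost less of its level on conversion. It stood at 11.2 and 15.7 CPM in Host and 16.0 to 18.3 CPM in DKO EpiLCs. Of the 5 other genes nearest over undifferentiated lines, 0 fell in EpiLCs. As 21.7% of all genes were called lower in Host and 22.5% in DKO conversion, 0 of 5 is near the background. Bag3 rose by 1.11 ± 0.16 in Host and 1.54 ± 0.16 in DKO lines (adjusted p = 2.48e-05 and 6.55e-07), and Inpp5f rose by 2.37 ± 0.22 and 2.87 ± 0.23 (adjusted p = 1.95e-07 and 3.57e-08).

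Neither relative of Zfp42 passed the test on conversion. Yy1, a broadly expressed regulator, changed by 0.01 ± 0.11 (adjusted p = 0.972) in Host and 0.13 ± 0.11 (adjusted p = 0.351) in DKO conversion, and Yy2 by -0.19 ± 0.30 (adjusted p = 0.637) and 0.06 ± 0.28 (adjusted p = 0.88). Across backgrounds Yy1 passed in neither pair. Yy2 was higher in PGC-ESC BaxKO than in PGC-ESC DKO lines (0.80 ± 0.26, adjusted p = 0.0329) and was at -0.21 ± 0.30 in the ESC pair (adjusted p = 0.709). The first call was lost with the Rn45s set as a term.

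That Yy2 difference split the PGC-ESC BaxKO lines. Lines 1, 3 and 4 had Yy2 at 21.7, 21.0 and 18.0 CPM and lines 2 and 5 at 9.17 and 10.9. Rlim, the X-linked gene for the ligase that marks Zfp42 protein for degradation, was at 160, 153 and 169 CPM in lines 1, 3 and 4 and at 78.4 and 85.1 in lines 2 and 5. Zfp42 RNA was at 489, 490 and 432 in the former and 419 and 457 in the latter, so it overlapped between them. Protein was not measured. Xist, low throughout, was at 5.52, 5.33 and 5.00 CPM in lines 1, 3 and 4 and at 3.18 and 3.50 in lines 2 and 5, the same split. Tsix, its antisense partner, was at 4.36, 4.02 and 5.97 CPM in the former and 6.66 and 6.57 in the latter; the strand setting of the counts is not known, so reads of Xist and Tsix cannot be told apart.

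Rlim rose in EpiLCs, by 1.07 ± 0.24 in Host and 1.06 ± 0.23 in DKO lines (adjusted p = 0.00147 and 0.00124), the opposite direction to Zfp42. Of the 5 X inactivation genes listed, Ftx and Jpx also rose in both conversions, though Jpx had at most 1 count in any PGC-ESC DKO library. Among all genes 22.4% were called higher in Host and 25.1% in DKO conversion. A list of 5 is too short to be told from such shares by counts. Across backgrounds 0 of 5 passed in ESCs, and Ftx, a noncoding activator of Xist, was higher in PGC-ESC BaxKO than in PGC-ESC DKO lines (1.65 ± 0.44, adjusted p = 0.0147); 0 of 5 passed there with the Rn45s set as a term.

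Over all genes 5.02% passed in the ESC pair, 23.6% in the PGC-ESC pair, and 44.0% and 47.6% in Host and DKO conversion. Of the imprinted genes, 4 were tested, too few to be told from such shares by counts. None passed in the ESC pair, where Gnas, which encodes a G protein subunit, was at -0.23 ± 0.21 (adjusted p = 0.542). In the PGC-ESC pair 2 were lower in BaxKO lines, Gnas at -1.03 ± 0.18 (adjusted p = 0.0011) and Usp29, a gene next to Peg3, at -1.34 ± 0.42 (adjusted p = 0.03), and 0 of 4 passed with the Rn45s set as a term. Gnas rose in both EpiLC conversions (1.53 ± 0.20 and 0.89 ± 0.20, adjusted p = 1.05e-05 and 0.00148 by edgeR's quasi-likelihood test). Peg3 and Zim1 rose in DKO lines, Zim1 alone of these with the set term. Zim1 was near the floor, at 0.0615 to 0.281 CPM in PGC-ESC DKO and 0.389 to 1.06 in EpiLC DKO lines.

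Genes of the 2-cell-like state, a rare state of ESC cultures in which early embryonic genes switch on, were called in the opposite direction to Zfp42. All 6 were lower in PGC-ESC BaxKO than in PGC-ESC DKO lines by edgeR's quasi-likelihood test, with a median of -3.31, for example Zscan4f at -3.12 ± 0.60 (adjusted p = 0.00251); with the Rn45s set as a term 1 of 6 passed, Tcstv1, while the median stayed as large, at -3.49. Over all genes, 11.4% were called lower in the PGC-ESC pair and 2.26% in the ESC pair. In the ESC pair 1 of 6 passed, Tcstv1, which had 3 counts in all over the 2 BaxKO libraries. In EpiLCs 22.4% of all genes were called higher in Host and 25.1% in DKO lines. Of the 6, 5 rose in Host and 3 in DKO lines (5 and 2 with the set term). Their summed level was 1.28 to 8.60 CPM in Bax lines, 6.07 to 61.6 in undifferentiated C57Bl6J lines and 51.8 to 177 in EpiLCs; the genes have close copies, so their counts are uncertain.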

How the data were processed

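RNA was poly(A)-selected, per the labels' protocols; reads were aligned with STAR 2.7.7a to mm10, per the submitters' processing notes. The counting tool, annotation and strand setting are not stated there. The authors deposited whole-number counts per gene for 21361 genes in 20 libraries. CPM was computed from these counts and each library's total. Differences were fitted with edgeR 4.0.16 (R 4.3.3): TMM scaling, filterByExpr (16363 genes tested, 4998 not), 1 mean for each of 7 groups (13 residual degrees of freedom), quasi-likelihood F tests, two-sided, Benjamini-Hochberg adjustment, called at an adjusted p under 0.05. The script was tested on simulated data. Groups came from the titles. Replicates are treated as separate lines. Replicate pairs differed by a chi-square of 7.10 to 240 per gene, so none was a copy of the same library. This check cannot show that the lines are independent. PGC-ESC BaxKO 1 and 3 were among the closest pairs, at 7.13. p-values measure the spread between these lines.

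Zfp42, the lists and neighbours were chosen with earlier results of these data known. In each list up to 4 called members with the smallest adjusted p were named, otherwise the 2 most abundant; likeness named the 6 nearest genes (prior count 2), and neighbours were the 4 annotated protein-coding genes on each side. Members beyond that rule (Klf4, Triml1 ranges, Otx2, Foxd3, Fat1, Sgcz) were named after their values were seen. Intervals on fold changes cover 95%.

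The design pairs EpiLC libraries with their parent lines, a pairing that the main fit did not use. Deviations from group means correlated by 0.111 and 0.172 in Host 3 and 4. In DKO 1 to 3 they correlated by 0.112, 0.116 and 0.0931. Each was highest with its own line. Alternatives were DESeq2 1.42.0, RLE scaling, totals without Rn45s, no filter, an Rn45s set term, either set alone, a replicate block and leaving out each library. Promoters came from RefSeq (GRCm38.p6), gene positions from GENCODE M21; all 3 promoters sought were matched by symbol. Amino acid sequences were not used here.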

Additional observations from a re-analysis of the deposited data

Results flagged for a closer look

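4 single libraries stood apart from the rest of their group by a gap test, among 34 groups of 4 or 5 libraries over 17 genes; chance flags about 1 group in 20. None was a Zfp42 value. Yy1 was at 117 CPM in ESC Host 4, against 174 to 177 in the other 3 Host lines. Rlim was at 105 CPM in ESC Host 2, against 79.5 to 81.6. In PGC-ESC BaxKO 2 both Ly75 (403 CPM, against 264 to 295 in the other 4) and Kit (431 CPM, against 280 to 321) were high, while Zfp42 in that line, at 419 CPM, was the lowest of the 5.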

How the results depend on the processing

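Zfp42 stayed higher in ESC BaxKO than in ESC Host and in PGC-ESC BaxKO than in PGC-ESC DKO under each of 11 alternatives (log2 1.54 to 1.67 and 1.50 to 1.67), and lower in EpiLCs under each of 10 (-2.65 to -2.46 in Host, -2.43 to -2.20 in DKO). Totals without Rn45s gave 1.65 and 1.67 for the first 2 and -2.46 and -2.20 for the EpiLCs; that scaling moved the median of all genes from 0.02 to 0.14 in the PGC-ESC pair, from -0.03 to 0.12 in Host and from 0.01 to 0.19 in DKO conversion. RLE scaling gave -2.56 for Host EpiLCs, and the low Rn45s set alone gave 1.67 for the ESC pair. None of the 5 tested differences passed under any alternative. PGC-ESC BaxKO against ESC BaxKO turned sign in the low set (-0.017) and ranged from -0.023 to 0.052 with 1 line left out; PGC-ESC DKO against ESC Host ranged from -0.011 to 0.11. The cause was not tested. Leaving out 1 library gave 0.27 to 0.32 for the EpiLC level, 0.18 to 0.30 for the EpiLC response and -0.20 to -0.12 for BaxHet.

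With the line as a replicate block the EpiLC response differed by 0.24, with 0 genes called in place of 1. Shared numbers alone do not pair the other groups (correlations 0.049 and -0.015 in BaxKO, -0.24 to -0.13 between DKO and Host); that replicate block gave 0.0056 and 0.11. Triml2 passed under all 11 alternatives in both pairs (1.22 to 1.40 and 1.21 to 1.50; highest adjusted p 0.018 and 0.00471). By rank correlation 0 of the 6 nearest genes were shared over 20 or 15 libraries, and Triml2 ranked 339.5. With the Rn45s set as a term, counts of listed genes changed mainly between PGC-ESC BaxKO and PGC-ESC DKO lines, whose sets do not overlap, as given beside those counts. Zfp42 had 492 counts or more in every library.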
